A study of Homo sapiens with 6 samples.

Results

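The array carried 340 mouse-named probes that shared their miRNA name with a human mature-named probe, and each was set beside its human namesake on the same array. They were chosen by name alone. A row whose name began with mmu- and did not end in -P was taken if the rest of its name equalled that of a human mature-named probe, with 1 human prefix spelled has- read as hsa-. The 340 were part of 2997 rows and of 730 mouse-named probes without the -P ending, of which the other 390 had no namesake of exactly that spelling. Of the 340 names, 62 carried a star, the older mark for the less abundant strand of a precursor. All RNA came from HCT-116, a cell line from a human colorectal carcinoma, so every mouse-named probe was read against human RNA.

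The cells were transiently transfected with an empty vector, called mock here, or with variant 1 or variant 2 of Uc283+a, a noncoding RNA transcribed from a sequence conserved between distant mammals. The sequence variants differ in the length of a T run, with 8 T in variant 1 and 9 T in variant 2, and the study looked for miRNAs that respond to the transcript. Each group had 2 arrays, and every array came from the same line in the same kind of transient transfection. Nothing in the labels states that the arrays of a group came from separate cultures. The p-values below therefore rest on the spread between these samples alone, and that spread may be technical. The authors had normalized the signals, which are on a log2 scale, and a difference of 1 on this scale is a doubling of signal.

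MicroRNAs are short RNAs that guide Argonaute proteins to messenger RNAs, mostly by pairing of bases 2 to 8 of the miRNA, the seed, with the target. Many are kept between mouse and human with the same or nearly the same letters, and they share a number by convention when they are orthologous. An array probe designed for a mouse miRNA can therefore also report its human ortholog. The signals of a pair still belong to different oligos: a gap between them is a difference in signal and not in RNA amount. Neither probe sequences nor mouse mature sequences were analysed here, so it is not stated which pairs have the same letters.

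The human mature sequences of 18 miRNAs are given because the widest gaps, the brightest pairs or the group differences described further on concern them. They come from RefSeq on GRCh38.p14, are written 5′ to 3′ and have the seed in capitals. The array names carry no arm for most of them, and the arm follows the current naming of the miRNA.
The first set had the mouse-named probe far above its namesake.
hsa-miR-329-3p: aACACACCugguuaaccucuuu
hsa-miR-181a-2-3p: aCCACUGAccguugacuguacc
hsa-miR-1193: gGGAUGGUagaccggugacgugc
hsa-miR-375-3p: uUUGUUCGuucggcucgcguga
hsa-miR-27a-3p: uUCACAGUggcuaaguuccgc
hsa-miR-1197: uAGGACACauggucuacuucu
The second set had the human-named probe far above its namesake.
hsa-miR-206: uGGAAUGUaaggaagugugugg
hsa-miR-122-5p: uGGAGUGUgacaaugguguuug
hsa-miR-130b-3p: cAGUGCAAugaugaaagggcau
hsa-miR-125a-5p: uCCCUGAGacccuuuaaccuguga
The third set holds the brightest pairs and those of the group comparisons.
hsa-miR-92a-3p: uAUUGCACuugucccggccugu
hsa-miR-92b-3p: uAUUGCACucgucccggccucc
hsa-miR-21-5p: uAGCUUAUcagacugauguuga
hsa-miR-29a-3p: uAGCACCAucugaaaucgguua
hsa-miR-29b-3p: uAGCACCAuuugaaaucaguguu
hsa-miR-29c-3p: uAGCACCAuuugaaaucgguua
hsa-miR-195-5p: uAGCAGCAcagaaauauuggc
hsa-miR-16-5p: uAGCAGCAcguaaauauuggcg
Shared seeds joined miR-92a with miR-92b, the 3 members of the miR-29 family, and miR-195 with miR-16. On the plus strand, miR-1197 lies at chr14:101025620-101025640, miR-329 at chr14:101026834-101026855 and again at chr14:101027151-101027172, and miR-1193 at chr14:101030061-101030083. All of these belong to the imprinted 14q32 miRNA cluster. Other plus-strand positions are chr9:124692518-124692539 for miR-181a-2*, chr6:52144401-52144422 for miR-206, chr18:58451088-58451109 for miR-122, chr22:21653354-21653375 for miR-130b, chr19:51693268-51693291 for miR-125a-5p and chr17:59841273-59841294 for miR-21. On the minus strand, miR-375 lies at chr2:219001648-219001669, miR-27a at chr19:13836447-13836467 and miR-195 at chr17:7017667-7017687.

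The medians of the arrays lay between 6.56 and 6.60. For the 38 random-sequence probes, which have no intended target, the 95th percentile of an array lay between 6.75 and 7.27. Above background, here, means that a probe exceeded the percentile of its own array on all 6 arrays. A pair of arrays stood apart from the rest in these pairs: the SD, over 82 pairs, of the difference in pair mean was 0.516 to 0.630 between the first mock array and any other, 0.430 to 0.459 between the second variant 2 array and the arrays other than the first mock, and 0.332 to 0.372 among the remaining arrays. The group results that moved most with those arrays are also given without them.

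About as many mouse-named as human-named members of the pairs were above background. The mouse-named probe passed in 99 of 340 pairs (29.1%) and the human-named probe in 104 (30.6%). Both passed in 82 pairs (24.1%), the mouse-named probe alone in 17, the human-named alone in 22 and neither in 219 (64.4%). Among the mouse-named probes without a namesake 94 of 390 passed, and among human mature-named probes outside the pairs 155 of 775 did. Star-named pairs had both probes above background in 5 of 62 and the other pairs in 77 of 278. Array by array, the mouse-named probes above the percentile numbered 117 to 166 and the human-named 116 to 172, with the first variant 2 array lowest for both. That array also had the highest percentile to exceed, 7.27, where the others had 6.75 to 6.94. No count at a common threshold was made, so whether fewer miRNAs gave signal on it was not tested.

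Signals within pairs went together. Over the 340 pairs the mean log2 signals of the mouse-named and human-named probes correlated with r = 0.886 (Spearman 0.704), and the r on a single array lay between 0.828 and 0.861. These points share arrays, labelling and normalization, and the r is a description. The gap, mouse-named minus human-named, had a median of -0.05 with quartiles of -0.46 and 0.33. It was within 1 in 281 pairs (82.6%), within 0.5 in 201 and beyond 2 in 12. Of those 281, 208 were pairs with neither probe above background. The gap was within 1 in 65 of the 82 pairs with both probes above it. It was so in 3 of 17 with the mouse-named alone and 5 of 22 with the human-named alone. The mouse-named probe was the higher in 160 pairs and the human-named in 180.

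The correlation depended on the signal. Over the 82 pairs with both probes above background, called the brighter pairs here, r was 0.851. Over the 219 with neither above it was 0.264. The brighter pairs did not have the smaller gaps. The gap was within 1 in 65 of the 82 (79.3%) and in 208 of the 219. The median absolute gap was 0.479 and 0.311. These pairs were selected by the signal itself, and the effect of that on r and on the gap was not tested. Among the 278 names without a star r was 0.901 and among the 62 star names 0.570. The gap was within 1 in 229 and 52 of these, with median absolute values of 0.395 and 0.271. In the 82 brighter pairs the gap was steadier between arrays, with a median SD over the 6 arrays of 0.338, against 0.585 over all 340. The gaps on 1 array correlated with those on another at 0.759 to 0.877 in the brighter pairs and 0.567 to 0.711 over all. For comparison, the 49 precursor-named pairs of the same name in both species had r = 0.723 with 81.6% within 1. Human precursor-named and human mature-named probes of 1 name, 347 pairs, had r = 0.344 with 62.8% within 1.

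In 50 pairs the 6 values of a probe did not overlap the 6 of its namesake, with the mouse-named higher in 22 and the human-named in 28. The share over all 389 same-name pairs, precursor-named ones included, was 15.2%. Of the 82 brighter pairs, 5 had the mouse-named probe clear above and 11 the human-named.

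The widest gap belonged to miR-329, a member of the 14q32 cluster. In the order mock, variant 1, variant 2 the mouse-named probe read 11.07 and 11.58, 11.08 and 11.69, 11.21 and 11.76. The human-named probe read 5.60 and 5.85, 6.14 and 5.47, 5.68 and 5.97, under the random-sequence level, and the gap was 5.61 ± 0.42 (SD, n = 6 arrays). The mouse-named probe was far above its namesake on every array of every group. The pair for miR-181a-2*, the star strand of the miR-181a-2 precursor, differed almost as much. Its mouse-named probe read 12.70, 13.01, 13.16, 12.95, 12.94 and 12.46 and its human-named probe 7.35, 8.73, 7.91, 7.70, 8.10 and 8.06 in the same order, a gap of 4.90 ± 0.47. In this pair both probes were above background.

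Other members of the 14q32 cluster with a high mouse-named probe were miR-1193 and miR-1197. For miR-1193 the mouse-named values ran from 8.75 to 9.98 and the human-named from 5.53 to 7.29, with a gap of 3.05 ± 0.75. For miR-1197 they ran from 8.49 to 9.18 and from 6.31 to 6.65, with a gap of 2.28 ± 0.21. Over the 39 pairs of the list for this cluster, which holds miR-329 but not miR-1193 or miR-1197, the mouse-named probe was above background in 6, the human-named in 5 and both in 3.

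For miR-375, an endocrine miRNA best known from pancreatic islets, the mouse-named probe read 9.70, 8.93, 9.39, 9.43, 9.50 and 9.94 and the human-named 7.33, 7.57, 7.11, 6.75, 6.91 and 6.51. The gap was 2.45 ± 0.67, and the groups of 6 did not overlap. Mismatch probes carry altered bases against a human miRNA, and those for miR-375 had means of 7.02 to 7.33, close to the 7.03 of the human-named probe and below the 9.48 of the mouse-named.

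The pair for miR-27a stood out from its cluster mates. The miR-23a, miR-27a and miR-24-2 hairpins are cut from 1 primary transcript. The mouse-named miR-27a probe read 8.65, 9.19, 9.17, 9.15, 9.29 and 9.02 and its namesake 7.20, 7.13, 6.68, 5.74, 6.46 and 7.25, a gap of 2.33 ± 0.72. For miR-23a the means were 13.86 and 13.52 and for miR-24 they were 10.31 and 10.02, so both of those pairs lay within 0.5. Of the miR-27a probes only the mouse-named was above background on all 6 arrays. The human-named probe exceeded the percentile on both mock arrays and the second variant 2 array, and not on the others.

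Among the pairs with the human-named probe higher were several tissue-restricted miRNAs. For miR-124, the neuronal miRNA, the human-named probe read 10.50, 10.73, 11.15, 10.82, 10.82 and 10.74 and the mouse-named 6.66, 6.73, 6.21, 5.94, 7.13 and 7.06, a gap of -4.17 ± 0.58. Its star strand miR-124* had human-named values of 9.27 to 9.88 and a gap of -3.41 ± 0.50. For miR-206, made in skeletal muscle, the human-named probe read 9.23, 9.83, 9.83, 10.18, 9.72 and 9.11 and the mouse-named 6.78, 5.89, 5.82, 5.96, 7.01 and 6.32, a gap of -3.35 ± 0.79. For miR-122, the main miRNA of hepatocytes, the human-named values ran from 9.46 to 9.88 and the mouse-named from 6.17 to 7.33, a gap of -2.95 ± 0.35. In each of these the human-named probe alone was above background, and no array overlapped.

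Counted over the marker lists, the 4 muscle pairs had a probe above background in 1 case, the human-named miR-206 probe. The 7 haematopoietic pairs had 1, the human-named miR-150 probe at 7.84 to 8.54 against 6.26 to 7.32 for the mouse-named. Of 5 neural pairs, miR-128 had both probes above background, miR-124 the human-named alone and miR-338-5p the mouse-named alone. Of 5 fibroblast pairs 1 did, miR-214 with means of 8.63 and 8.87. The 3 intestinal pairs, miR-192, miR-194 and miR-215, had neither probe above background on all arrays, with probe means of 6.16 to 6.68. The markers chosen for intestinal epithelium also held the 5 pairs of the miR-200 family. Of these 2, miR-200b and miR-200c, had both probes above background, and the highest probe mean was 10.23.

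The human-named probe was also higher where both probes were above background. For miR-130b, of the miR-130 and miR-301 seed family, it read 10.61, 10.47, 9.99, 9.99, 10.39 and 9.89 against 8.07, 8.00, 7.76, 7.27, 7.40 and 7.22, a gap of -2.60 ± 0.26. For miR-125a-5p, a relative of the lin-4 miRNA of Caenorhabditis elegans, it ran from 10.35 to 11.04 against 7.83 to 9.31, a gap of -1.87 ± 0.46. The let-7 family, which represses growth and stem cell factors, had 9 pairs with 8 above background in both probes. Its human-named probe was the higher in 7 of 9, with a median gap of -0.63. Means were 11.26 mouse-named and 12.01 human-named for let-7a, 11.62 and 12.30 for let-7b and 9.73 and 10.92 for let-7i. The 6 values of let-7i did not overlap between the probes.

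Of the 8 brightest pairs, 7 had a gap within 1, with a median absolute gap of 0.562 against 0.479 over the 82 brighter pairs. For miR-92a, the last miRNA of the miR-17 to miR-92a cluster, the mouse-named probe read 15.23, 15.13, 15.09, 15.29, 15.07 and 14.64 and the human-named 15.42, 15.22, 15.22, 15.16, 15.40 and 14.43. The gap was -0.07 ± 0.20, and on both probes the second variant 2 array was lowest. Its seed mate miR-92b had means of 14.60 and 13.98, a gap of 0.62 ± 0.27. For miR-494 the means were 14.83 and 13.74, with a gap of 1.09 ± 0.74 that ran from 0.08 to 1.89 between arrays. The gaps were -0.51 ± 0.29 for miR-212, 0.83 ± 0.26 for miR-222, 0.34 ± 0.30 for miR-23a, -0.43 for miR-23b and -0.64 ± 0.14 for miR-574-5p. For miR-574-5p this small gap exceeded its spread, with all human-named values above all mouse-named ones.

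Among the brighter pairs the closest was miR-200c, an epithelial miRNA that represses ZEB1 and ZEB2. Its mouse-named probe read 10.25, 10.35, 10.40, 10.39, 10.33 and 9.67 and its human-named probe 10.10, 10.31, 10.29, 10.31, 10.25 and 9.83, a gap of 0.05 ± 0.11. Next came miR-17 with a gap of -0.06 ± 0.36 and then miR-92a.

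Mismatch probes were present for 12 of the paired names, 75 probes in all, of which 47 had a mean below that of the mouse-named probe. The mouse-named probe was below every mismatch probe for miR-210, 6.36 against 6.45 to 6.89, and for miR-34a, 6.16 against 6.57 to 8.02. For 5 names, miR-21, miR-181a, miR-221, miR-222 and miR-375, the mouse-named probe exceeded every mismatch probe. For miR-222 this was by little, 14.26 against 14.20, and the mismatch means, from 12.66, lay around the 13.43 of the human-named probe. Mismatch means also lay on both sides of the human-named mean for miR-17, 10.40 to 11.32 around 11.11, and for miR-34a, 6.57 to 8.02 around 6.97. For miR-21 the mismatch means ran from 6.53 to 8.65, below the 10.04 of the mouse-named and the 10.63 of the human-named probe. For miR-16 they ran from 8.03 to 9.18, around the 8.15 and 8.65 of the pair. For miR-155 they ran from 6.17 to 7.96, with the mouse-named mean of 6.19 near the lowest of them and the human-named mean of 8.16 above them all.

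The study's design compares Uc283+a with mock, and each pair gives a second reading of that difference. Differences are log2 signal of the mean of both variants minus mock unless another comparison is named. In the 82 brighter pairs the mouse-named and human-named differences correlated with r = 0.564 and had the same sign in 58 (70.7%), both below mock in 45 and both above in 13. Over all 340 pairs r was 0.223 with the same sign in 198 (58.2%), and over the 219 pairs with neither probe above background r was 0.113 (54.3%). Among the 82, r was 0.339 without the first mock array and 0.392 without both arrays that stood apart, which left 53 pairs of the same sign, 39 of them below mock. Without the second variant 2 array r was 0.572, and 37 pairs were below mock on both probes and 22 above.

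Differences between arrays of 1 group, which hold no group difference, also went together in the 82 pairs. The r was 0.495 between the mock arrays, 0.151 between the variant 1 arrays and 0.280 between the variant 2 arrays, with the same sign in 72.0%, 57.3% and 73.2%. The points share the arrays, and a change of an array moves both probes of a pair. On the second variant 2 array the median deviation of the 82 pairs from their means over the arrays was -0.36 for both probes.

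No pair passed the test. With limma and Benjamini-Hochberg adjustment, 0 of the 340 mouse-named probes, 0 of their namesakes, 0 pair means and 0 within-pair differences passed an adjusted p of 0.05 for both variants against mock. The share called was 0.0% of all 2857 tested probes and 0.0% of all 389 pairs. At an unadjusted p under 0.05 there were 7 mouse-named probes higher and 6 lower, 2 namesakes higher and 8 lower, 4 pair means higher and 10 lower, and 3 within-pair differences higher and 7 lower. The shares at that level were 4.38% of all probes, 4.37% of pair means and 3.08% of within-pair differences. The lowest adjusted p of limma was 0.347 for a pair mean and 0.975 for a within-pair difference.

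The 4 variant values lay clear of both mock values in 43 mouse-named probes (12.6%) and 46 namesakes (13.5%), against 13.5% of all probes tested. Both probes did so in the same direction in 11 pairs, 3 higher and 8 lower, and in opposite directions in 1. The same-direction share over all 389 pairs, these 340 included, was 2.83%.

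The pair for miR-21, an oncogenic miRNA that represses PDCD4, was among the 8. Its mouse-named probe read 10.86 and 10.64 in mock, 10.14 and 9.88 with variant 1, and 9.24 and 9.45 with variant 2. Its human-named probe read 11.47 and 11.12, 10.27 and 10.43, and 10.33 and 10.15. On both probes every variant array was below both mock arrays. The differences were -1.07 (SE 0.323) mouse-named and -1.0 (SE 0.324) human-named. The pair mean differed by -1.04 (SE 0.284, 95% interval -1.63 to -0.44, limma adjusted p = 0.347), which did not pass. The within-pair difference differed between the groups by -0.07 with an interval of -1.0 to 0.86. Leaving out any array gave pair means of -1.18 to -0.90, and leaving out both arrays that stood apart gave -0.90. The values were -0.84 for variant 1 and -1.23 for variant 2.

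In the miR-29 family, whose members repress collagens and DNA methyltransferases, all 3 pairs were above background in both probes and all 6 probes had a mean below mock. The mouse-named miR-29b probe read 9.69 and 9.02 in mock, 8.17 and 7.33 with variant 1, and 8.13 and 7.95 with variant 2. The human-named read 9.24 and 7.85, 8.11 and 7.37, and 7.44 and 8.02, so that its second mock array fell among the variant arrays. The pair mean differed by -1.14 (SE 0.339, interval -1.85 to -0.43, limma adjusted p = 0.347). It was -0.62 without the first mock array, -1.65 without the second and -0.67 without both arrays that stood apart. The pair mean differed by -0.62 for miR-29c and by -0.31 for miR-29a, with ranges of -0.95 to -0.29 and -0.52 to -0.10 as single arrays were left out, and -0.40 and -0.0092 without both arrays that stood apart. The family's median was -0.62, against -0.06 over all pairs and -0.18 over the 82 brighter ones. Without the first mock array these medians were -0.29, -0.10 and -0.18, and without both arrays that stood apart -0.40, -0.08 and -0.10.

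Pairs from the miR-17 to miR-92a cluster and its paralogous clusters, which promote cell growth, numbered 14, with 9 above background in both probes. The pair mean was below mock in 12 of 14 and the probes of a pair had the same sign in 12, with a median of -0.45 and no pair called. Without both arrays that stood apart 11 of 14 were below mock and the median was -0.38, against -0.08 over all pairs. For miR-20a the mouse-named probe read 10.76 and 10.63, 10.50 and 10.30, and 10.15 and 10.30, and the human-named 11.55 and 11.64, 11.03 and 11.06, and 10.78 and 10.26. All variant values were below both mock values on both probes, and the pair mean differed by -0.60 (SE 0.282, limma adjusted p = 0.828). For miR-17 the pair mean differed by -0.57 (SE 0.286) and for miR-130a, of the miR-130 and miR-301 seed family, by -0.71 (SE 0.307), with -0.37 and -0.43 without both arrays that stood apart.

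Several other families had medians between those values. All 4 miR-30 pairs, all 5 miR-200 pairs and all 5 pairs of the miR-23, miR-27 and miR-24 clusters had pair means below mock, with medians of -0.40, -0.39 and -0.35. Without both arrays that stood apart the medians were -0.15, -0.06 and -0.38. Both probes were above background in 4, 2 and 3 of these pairs. Without the second mock array 3 of the 5 miR-200 pairs were below mock. The let-7 pairs had a median of -0.18, with 7 of 9 below mock but the same sign on both probes in 4, and leaving out single arrays gave medians of -0.37 to -0.08. The pairs of the miR-10, miR-99, miR-100 and miR-125 families had a median of -0.12, with 5 of 7 below mock, and of 0.024, with 3 of 7, without the second variant 2 array. Other lists lay near or above mock. The 39 pairs of the 14q32 cluster had a median of 0.025, with 16 below mock. The 5 neural and 5 fibroblast pairs had medians of -0.026 and -0.053. The 7 haematopoietic pairs had a median of 0.29, with 1 below mock, and the 4 muscle pairs 0.14, with 0 below. None of the haematopoietic or muscle pairs had both probes above background. Without the second mock array their medians were 0.46 and -0.12. No pair of these lists was called. Over all pairs 195 of 340 pair means were below mock, and over the brighter ones 61 of 82. Without the second variant 2 array, whose shared deviation is given above, these were 192 of 340 and 50 of 82, with a median of -0.08 over the brighter pairs.

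The family of miR-16 and miR-195, with miR-503 as a relative, had 6 pairs, of which 2 were above background in both probes. For miR-195 the mouse-named probe read 7.24 and 8.33 in mock, 8.18 and 6.10 with variant 1, and 7.48 and 7.03 with variant 2. The human-named read 9.35 and 9.23, 8.42 and 8.58, and 8.98 and 8.46, all above all mouse-named values, and it alone was above background. Every human-named variant value was below both mock values and the mouse-named ones overlapped. The differences were -0.59 (SE 0.591) and -0.68 (SE 0.333), and the group difference in the gap was 0.09 with an interval of -1.48 to 1.66. The pair mean differed by -0.64 (interval -1.33 to 0.06), and by -0.39 without the second mock array. For miR-16 the mouse-named probe read 9.42 and 7.95, 7.57 and 8.11, and 7.86 and 7.95, and the human-named 9.71 and 7.92, 8.88 and 8.44, and 8.89 and 8.08. The first mock array was the highest on both probes, and the pair mean difference was -0.53 with it and 0.29 without it.

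Among the 3 pairs with all variant values above both mock values on both probes, 1 was of the brighter ones, miR-720, a name since reassigned to a transfer RNA fragment. Its mouse-named probe read 10.34 and 10.63, 10.76 and 10.71, and 11.01 and 10.85, and its human-named 10.84 and 10.88, 11.74 and 11.04, and 11.52 and 11.08. The pair mean differed by 0.42 (SE 0.290), 0.41 without both arrays that stood apart. For miR-453 the mouse-named probe read 5.15 and 5.24, 6.38 and 6.45, and 6.31 and 6.52, and the human-named 7.10 and 6.78, 7.37 and 7.83, and 7.65 and 7.88. The pair mean differed by 0.98 (SE 0.285, limma adjusted p = 0.347), but neither probe was above background on all arrays, so no size of change in RNA follows. The same holds for miR-339-5p at 0.53, and, on the lower side, for miR-148b at -1.09 (SE 0.308, limma adjusted p = 0.347), which was -0.72 without the first mock array.

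Over all 389 pairs, which include the 340, the group difference in the gap had an unadjusted limma p under 0.05 in 3.08%. Among the 340 it did so in 10 pairs. Those with the smallest p were 1.14 for miR-488, 1.16 for miR-302b* and 1.03 for miR-376c on the higher side and -1.24 for miR-802, -1.33 for miR-505 and -1.31 for miR-144 on the lower. In all of these pairs neither probe was above background on all arrays, and none passed. In the bright miR-2861 pair the gap differed by -1.81 (SE 0.690) for variant 1 against mock. Its mouse-named probe read 9.38 and 9.37 in mock and 9.07 and 8.23 with variant 1, and its human-named 7.58 and 9.48, then 9.69 and 9.53. On both probes the arrays of these groups did not overlap, and the first mock value of the human-named probe was far below its other values. Without the first mock array the gap differed by -0.86.

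Each variant was also compared with mock and with the other, and the comparisons with mock share the mock arrays. Limma called 0 probes, pair means or within-pair differences for variant 1 against mock, for variant 2 against mock or for variant 2 against variant 1 (0.0% of all probes and of all pairs in each). At an unadjusted p under 0.05 the pair means numbered 4 higher and 7 lower for variant 1 (3.6% of all pairs), 6 and 12 for variant 2 (5.14%), and 7 and 4 for variant 2 against variant 1 (2.83%). Mouse-named probes numbered 4 and 5, 9 and 11, and 6 and 7, where all probes gave 3.78%, 4.87% and 4.45%. Within-pair differences numbered 7 and 2, 3 and 10, and 7 and 11, where all pairs gave 2.83%, 4.37% and 5.14%. In the 82 brighter pairs, the r of the mouse-named and human-named differences was 0.524 for variant 1, 0.487 for variant 2 and 0.219 for variant 2 against variant 1, with the same sign in 69.5%, 74.4% and 70.7%. For variant 2 both probes were below mock in 52 pairs and above it in 9, but without the second variant 2 array in 26 and 25. For variant 2 against variant 1 both probes were lower in 48 and higher in 10, and without that array in 24 and 27. For variant 1, r was 0.267 without the first mock array.

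Both probes of a pair were clear of the other group in the same direction in 30 pairs for each of these comparisons. Over all 389 pairs the shares were 9.25% for variant 1, 7.71% for variant 2 and 8.48% for variant 2 against variant 1. Those 389 are mostly the 340 themselves, so the shares are no separate background. Both probes were clear in opposite directions in 15, 12 and 19. Taken alone, the mouse-named probe was clear in 119, 117 and 129 pairs, and all probes gave 33.9%, 33.0% and 35.9%. By the smallest p among those 30, the pair means that stood out for variant 1 were miR-453 at 0.94 and miR-568 at 0.95, and miR-19a at -0.85 and miR-21. For variant 2 they were miR-453 at 1.02 and miR-494 at 0.78, and miR-21 and miR-148b at -1.28. Of these names miR-21 and miR-494 were above background in both probes. On the mouse-named miR-494 probe the first mock array, at 13.87, was the lowest, and the others read 14.86 to 15.10. The pair mean of miR-494 for variant 2 was 0.53 without the second variant 2 array and 0.42 without both arrays that stood apart.

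Between the variants, miR-218-1* at 1.23 and miR-30c-1* at 0.93 were higher with variant 2, and miR-509-3p at -1.33 and miR-145* at -1.24 were lower. In none of these were both probes above background. For miR-218-1* the second variant 2 array, at 9.49 on the mouse-named probe, was well above the first at 7.73. Without that second array the pair means were 0.63 for miR-218-1* and 0.60 for miR-30c-1*. The human-named miR-509-3p probe read 9.78 and 9.46 with variant 1 and 6.85 and 9.11 with variant 2, so that the first variant 2 array was far below the others. The gap with the smallest p was that of miR-500, which differed by 2.53 (SE 0.670). The mouse-named probe read 5.13 and 5.65 with variant 1 and 5.85 and 7.18 with variant 2, and the human-named 7.59 and 7.68, then 6.52 and 5.93. The gap differed by 1.56 without the second variant 2 array. Neither of its probes was above background on all arrays, and it did not pass.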

How the data were processed

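Total RNA of HCT-116 was extracted with Trizol and labelled with biotin by reverse transcription from random octamers, per the labels' protocols. The deposited table holds log2 signals of 2997 probes on 6 one-colour arrays, already normalized by the authors. The submitters' processing notes name limma. How background was corrected and arrays normalized, and any build, is not given in the sources used here, and the base of the logarithm was read from the values.

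Pairs were formed by exact name, and members, lists and the background definition were chosen with earlier results of these data known. All 2857 miRNA and ultraconserved-region probes were fitted with limma 3.58.1 in R 4.3.3, with 1 mean per group. Pair means and within-pair differences were fitted the same way over 389 same-name pairs, 49 of them precursor-named. Each fit had 3 residual degrees of freedom, to which empirical Bayes added 5.54 for probes, 4.78 for within-pair differences and 14.8 for pair means. All tests were two-sided, with Benjamini-Hochberg adjustment over each whole table and a threshold of 0.05, and intervals are 95% intervals of the fit. The steps were also run on simulated data with independent noise for every probe and array. That simulation held no deviations shared by the probes of an array, so it does not cover them. The number of arrays, 2 per group, limits the precision. Replicates were numbered in accession order, so the numbers pair no samples.

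The text names the 8 brightest pairs, the 6 with the largest gap in each direction among pairs with a probe above background, the 3 closest with both above it, and for each comparison the pairs with the smallest p. For the pair mean these were up to 4 per direction for both variants and 2 for other comparisons, among pairs whose groups did not overlap on either probe. For the gap they were 3 and 1. Gap pairs not described above were miR-200a for variant 1, miR-30b* and miR-496 for variant 2, and miR-301b between the variants. As single arrays were left out, these gaps differed by 1.46 to 1.66, 1.06 to 2.26, -1.93 to -1.22 and -2.66 to -1.40. None passed or had both probes above background. The text also names a set of 18 miRNAs, of which 17 had a pair and miR-31 had none. In this set miR-141 ranged from -0.66 to -0.35 on the pair mean and 0.57 to 1.27 on the gap as single arrays were left out. Only 3 pairs qualified for the 4 places on the higher side of the pair mean. Of the 340 names, 86 equalled a RefSeq mature name, 160 did so once an arm was added, and 94 did neither, so a check of GC content was void. Differences between mouse and human mature sequences were not analysed here.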

Additional observations from a re-analysis of the deposited data

How the results depend on the processing

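No probe or pair passed an adjusted p of 0.05 under any alternative run, with 1 exception: without the first mock array, 1 pair mean passed for variant 2 against mock, so that leaving out single arrays gave 0 to 1 pairs. It was miR-331-5p, named after its value was seen, at -2.03 (limma adjusted p = 0.0341), against -1.38 (SE 0.396, adjusted p = 0.264) with all arrays, and neither of its probes was above background. When only pairs with both probes above background were fitted, 86 in all, the lowest limma adjusted p of a pair mean was closer to the threshold. It was 0.0735 for both variants against mock and 0.0579 for variant 2 against mock. The correlation of signals was 0.886 over all pairs and 0.851 where both probes were above background, and that of the group differences 0.223 and 0.564. These sets of pairs differed in signal as well as in number, and what moved each r was not tested. Quantile normalization gave 0.886 and 0.219, and matching names without regard to case, which added 9 pairs, gave 0.888 and 0.225. Without both arrays that stood apart, an alternative chosen after seeing the data, the pair mean of both variants against mock changed sign in 12 of the 60 named pairs, among them miR-16 at 0.38 and miR-15a at 0.29. Leaving out single arrays changed the sign in 28 of the 60. For the 7 of these in the set of 18 miRNAs the ranges were -1.34 to 0.29 for miR-16, -0.31 to 0.20 for miR-15a, -0.62 to 0.21 for miR-15b, -0.38 to 0.0082 for let-7a, -0.20 to 0.066 for miR-200c, -0.30 to 0.0092 for miR-192 and -0.44 to 0.0504 for miR-145. The cause of each was not tested. No paired analysis was possible because the labels give no replicate numbers that the groups share. Keeping the first row of a repeated name changed no count of calls, since no paired name had 2 human rows. For the 219 pairs with neither probe above background, the signals set no size of change.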
